A study of Mus musculus with 4 samples.

Results

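The Schlafen genes described here are the 6 mouse members Slfn1, Slfn2, Slfn4, Slfn5, Slfn8 and Slfn9, found by symbol in the feature lists of all 4 libraries and set against 30406 genes that the lists share. The libraries hold single-cell RNA-seq counts of live CD45.2+ immune cells sorted from brains of mice that carried GL261 glioma, a transplanted mouse brain tumour line. The labels give brain as the source, though a line of the sorting protocol speaks of lung cells, and every library held cells that passed the microglial gate. There were 4 groups of 1 library each. Untreated IFNaR-/- mice, without a working type I interferon receptor, and untreated WT mice were sampled on day 20 after tumour injection. IFNaR-/- mice and WT mice treated with anti-PD1, an antibody to an inhibitory receptor found on T cells, were sampled on day 25 after 200 ug per mouse on days 7, 11, 15 and 19. Suspensions were pooled before the sort, and after anti-PD1 the CD3+ and CD3- cells were mixed in equal parts. The counts do not show equal parts: the T cell gates held 784 of 8476 kept IFNaR-/- cells and 615 of 9464 kept WT cells after anti-PD1. With 1 library per group no difference could be tested between animals, and all intervals below are 95% intervals that cover counting error only.

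Schlafen proteins are named after the German word for sleep, because forced expression of the founding mouse gene slowed the growth of T cells. Slfn1 and Slfn2 are short, Slfn4 is of middle length, and the long members Slfn5, Slfn8 and Slfn9 carry a helicase-like end. Several members cut or protect transfer RNA, and in mice many are switched on by type I interferon, above all in macrophages. In mice, loss of Slfn2 makes resting T cells and monocytes fail to stay quiescent, and Slfn4 marks myeloid cells in inflamed tissue.

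The 6 genes lie together on chromosome 11 (GRCm38), on both strands, in a cluster that also holds Slfn3, Slfn14, the antisense gene Slfn5os and a pseudogene. Slfn5 is at 82951349 to 82964840 on the plus strand, Slfn9 at 82978390 to 82991830 and Slfn8 at 83002158 to 83020810 on the minus strand, and Slfn2, Slfn1 and Slfn4 follow on the plus strand at 83065112 to 83070678, 83116849 to 83122670 and 83175186 to 83190216. The promoter windows of Slfn4, Slfn5, Slfn8 and Slfn9 are shown because these genes had the largest difference in macrophages (Slfn4), a match to the interferon-stimulated response element (Slfn5), or similar windows with unlike differences in T cells (Slfn8 and Slfn9). Each runs 5′ to 3′ on the gene's own strand, from 250 bases before the RefSeq start to 50 bases after it (GRCm38.p6), and capitals mark matches to the core of the interferon-stimulated response element on either strand: GAAA, any 2 bases, then GAAA. The RefSeq start of Slfn5 lies inside the GENCODE gene, after its first base.
Slfn4, chr11:83174936-83175235, plus strand: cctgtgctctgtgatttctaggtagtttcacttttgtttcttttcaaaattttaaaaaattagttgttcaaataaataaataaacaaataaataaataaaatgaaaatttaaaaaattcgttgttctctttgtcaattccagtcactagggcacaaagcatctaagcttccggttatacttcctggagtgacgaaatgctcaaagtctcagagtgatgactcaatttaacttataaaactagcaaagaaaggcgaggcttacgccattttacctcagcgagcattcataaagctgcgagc
Slfn5, chr11:82951852-82952151, plus strand: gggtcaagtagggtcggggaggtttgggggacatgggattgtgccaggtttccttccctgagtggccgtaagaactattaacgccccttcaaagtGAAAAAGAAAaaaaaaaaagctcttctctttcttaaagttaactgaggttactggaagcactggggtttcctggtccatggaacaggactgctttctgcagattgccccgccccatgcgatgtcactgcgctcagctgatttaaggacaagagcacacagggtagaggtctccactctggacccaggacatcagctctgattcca
Slfn8, chr11:83020761-83021060, minus strand: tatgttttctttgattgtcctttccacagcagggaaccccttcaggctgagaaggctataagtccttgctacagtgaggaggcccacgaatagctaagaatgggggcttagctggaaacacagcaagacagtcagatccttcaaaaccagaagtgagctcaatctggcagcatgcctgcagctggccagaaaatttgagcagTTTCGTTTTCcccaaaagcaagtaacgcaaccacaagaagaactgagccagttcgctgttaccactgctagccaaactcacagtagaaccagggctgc
Slfn9, chr11:82991781-82992080, minus strand: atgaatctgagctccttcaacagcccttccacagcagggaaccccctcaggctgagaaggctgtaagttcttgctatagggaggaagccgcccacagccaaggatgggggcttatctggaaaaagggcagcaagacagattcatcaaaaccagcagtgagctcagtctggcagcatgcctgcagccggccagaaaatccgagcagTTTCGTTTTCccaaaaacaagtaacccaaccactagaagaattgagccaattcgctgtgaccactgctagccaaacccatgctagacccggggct
The windows of Slfn8 and Slfn9 had 252 identical bases out of 300 in a global alignment, and the match began 48 and 45 bases before their starts. The match in Slfn5 began 155 bases before the start. Another RefSeq start of Slfn8 holds the same match, and the windows of Slfn1, Slfn2 and Slfn4 hold none. Of all 32851 promoter windows in the table, 3.44% hold this motif. The GAS motif TTCNNNGAA, searched on both strands, was in none of the 6 genes' windows and in 8.30% of all windows. A match is a description of letters and says nothing on whether a factor binds.

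Cells were placed in lineages by raw counts of marker genes, and each library had 58.2% to 67.7% of its 2810 to 9464 kept cells in a lineage. Levels are in CPM, the molecules (UMIs) of a gene scaled to a common total for each lineage of a library. The gates held their other markers: Sall1, a microglial transcription factor, was at 143 and 169 CPM in untreated IFNaR-/- and WT microglia, and Mmp9, a neutrophil protease, at 1102 and 1404 CPM in their neutrophils. After anti-PD1 the myeloid gates were less distinct, since Itgam, the myeloid integrin CD11b, was at 129 CPM in IFNaR-/- and 194 CPM in WT monocytes/macrophages, against 322 and 228 CPM over their other gates. Ifnar1, a receptor subunit, was counted at 129 CPM in untreated IFNaR-/- and 96.0 CPM in untreated WT cells, and at 147 CPM in IFNaR-/- and 77.3 CPM in WT cells after anti-PD1. The labels do not say which receptor gene or exon was changed, so these counts check nothing. Isg15, the classical interferon-induced ubiquitin-like gene, was at 92.1 and 964 CPM in untreated IFNaR-/- and WT cells, and at 57.3 and 1033 CPM after anti-PD1. The anti-PD1 libraries were not alike in kind: variable segments of T-cell receptor genes had 0.0837 UMIs per constant-segment UMI in IFNaR-/- T cells and 2.02 in WT T cells, against 0.0161 and 0.0177 in the untreated pair. Given these receptor segments, differences between the anti-PD1 libraries cannot be told apart from differences in how they were made, and the untreated pair leads below. The anti-PD1 libraries, with 8764 IFNaR-/- and 9530 WT barcodes, shared 95 of them, where other pairs of libraries shared 0 to 3. This sharing does not show a difference in kind, and its source was not tested.

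In untreated monocytes/macrophages every member was lower in the IFNaR-/- library, and 5 of 6 were at least 2-fold lower, where 4.04% of all 9905 genes measured were. The members' median difference was -2.60 on the log2 scale, against 0.09 over all genes. A gene counts as measured with at least 50 UMIs in both libraries together. A member that is rare in the IFNaR-/- library can reach this only through its WT counts and then had to differ, so the counts of members describe and are not support. At the IFNaR-/- level in both libraries, Slfn4 would not have been measured here. Slfn4, a myeloid Schlafen gene, had 1.02 CPM (8 counts) in 648 IFNaR-/- cells and 213 CPM (2217 counts) in 1126 WT cells, 209.8-fold lower (106 to 487). Only 3 of the 9905 genes had a more negative difference. Slfn5, whose human form represses interferon-driven transcription in the nucleus, had 36.4 and 593 CPM in IFNaR-/- and WT cells, 16.3-fold lower (14.5 to 18.4). Slfn8, a long member with a helicase-like end, had 26.5 and 165 CPM, 6.21-fold lower (log2 interval -2.85 to -2.43), and its neighbour Slfn9 had 9.77 and 58.2 CPM, 5.96-fold lower (4.69 to 7.66). Slfn1, the founding member, had 55.0 and 232 CPM, 4.22-fold lower (3.81 to 4.69). Slfn2, the quiescence gene, had 419.6 and 718 CPM and was 1.71-fold lower (1.64 to 1.78), the smallest difference of the 6.

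**Figure D1:**
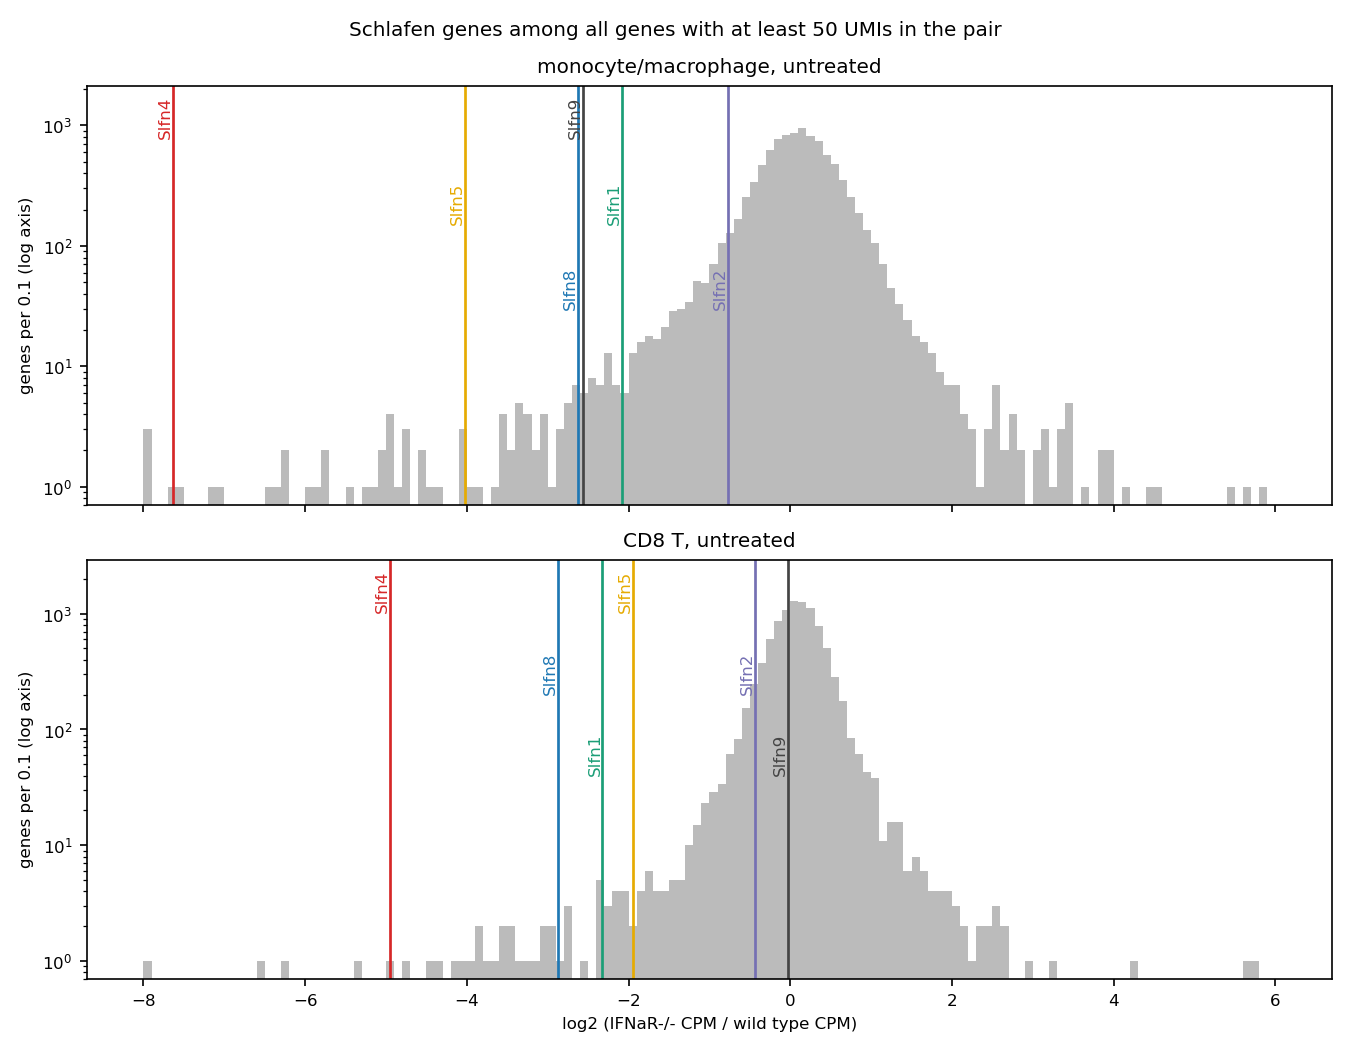
Histogram of log2 differences (IFNaR-/- over WT, untreated) of all measured genes in monocytes/macrophages and in CD8 T cells. The y axis is the number of genes per 0.1 on a log axis, values below -8 are drawn at -8, and coloured lines mark the Schlafen genes: Slfn9 stands at -2.57 in monocytes/macrophages and at -0.03 in CD8 T cells.

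The monocyte/macrophage gate split differently by Ly6c2 and C1q counts in each genotype. Ly6c2 defines both sets below, and whether another mix of cells or another Ly6c2 level per cell gave this split was not tested. Cells with 2 or more UMIs of Ly6c2, a marker of recent monocytes, were 108 of 648 in the IFNaR-/- library and 841 of 1126 in the WT library. Cells with no Ly6c2 and 10 or more UMIs of complement C1q genes, a macrophage marker, were 322 and 112. In WT cells all 6 members were higher in the Ly6c2 cells than in the C1q cells, with Slfn4 at 257 and 48.4 CPM and Slfn1 at 269 and 85.3 CPM. Within the Ly6c2 cells the same comparison of IFNaR-/- with WT gave 5 of 6 members at least 2-fold lower, against 5.50% of genes: Slfn4 had 2.25 CPM (3 counts) in IFNaR-/- and 257 CPM in WT cells, and Slfn5 had 83.2 and 673 CPM. Within the C1q cells it was also 5 of 6, against 2.39% of genes: Slfn4 had 0 counts in IFNaR-/- cells and 48.4 CPM in WT cells, and Slfn5 had 15.8 and 196 CPM. In the Ly6c2 and in the C1q cells Slfn4 was measured only through its WT counts. Slfn1 had 41.2 and 85.3 CPM in IFNaR-/- and WT C1q cells, a log2 difference of -1.05 (-1.41 to -0.69) against -2.08 in the whole gate, and Slfn9 had 9.27 and 23.8 CPM, a log2 difference of -1.34 (-2.09 to -0.62) against -2.57.

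Detection of members overlapped in untreated WT monocytes/macrophages thinned to 2000 UMIs each. Slfn5 was found in 70.1% of the 334 cells with a Slfn4 UMI and in 45.8% of the 789 cells without one. Slfn8 was found in 52.0% of the 100 cells with a Slfn9 UMI and in 27.6% of the 1023 without one. These are cells of 1 library, and the Ly6c2 and C1q cells are mixed in both sets.

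Slfn4 differed less between the genotypes in neutrophils. It had 194 CPM (42 counts) in 66 untreated IFNaR-/- neutrophils and 921 CPM (248 counts) in 63 WT neutrophils, 4.74-fold lower (3.40 to 6.74), where monocytes/macrophages gave 209.8-fold. The intervals of the differences do not overlap. A Slfn4 UMI was found in 33.3% of IFNaR-/- neutrophils, at a median of 2178 UMIs per cell. It was found in 1.23% of IFNaR-/- monocytes/macrophages, at a median of 11073.5, and in 0.251% of IFNaR-/- CD8 T cells, which are not myeloid, at a median of 10075. These neutrophils were 2.35% of the kept IFNaR-/- cells and held 59.2% of that library's 71 Slfn4 UMIs, and cells in no gate held 12.7%. In the untreated WT library neutrophils held 4.67% of 5312 Slfn4 UMIs and monocytes/macrophages 41.7%. Cells in no gate, 24.2% of the kept WT cells, held 44.2%, so the largest part of WT Slfn4 lay outside the gates compared. Slfn5 had 9.26 CPM (2 counts) in IFNaR-/- and 379 CPM in WT neutrophils, 40.9-fold lower (11.0 to 342). Slfn2 and Slfn1 differed by less than counting error: Slfn2 had 810.4 and 888 CPM, a log2 difference of -0.13 (-0.42 to 0.16), and Slfn1 had 194 and 286 CPM, a log2 difference of -0.55 (-1.13 to 0.00). Of the 4 members measured, 2 were at least 2-fold lower, against 5.21% of the 1458 genes measured there, and Slfn5 was measured only through its WT counts. The low number of neutrophils and of their UMIs limits these values. Barcodes that also passed the monocyte/macrophage gate were kept as neutrophils.

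**Figure D2:**
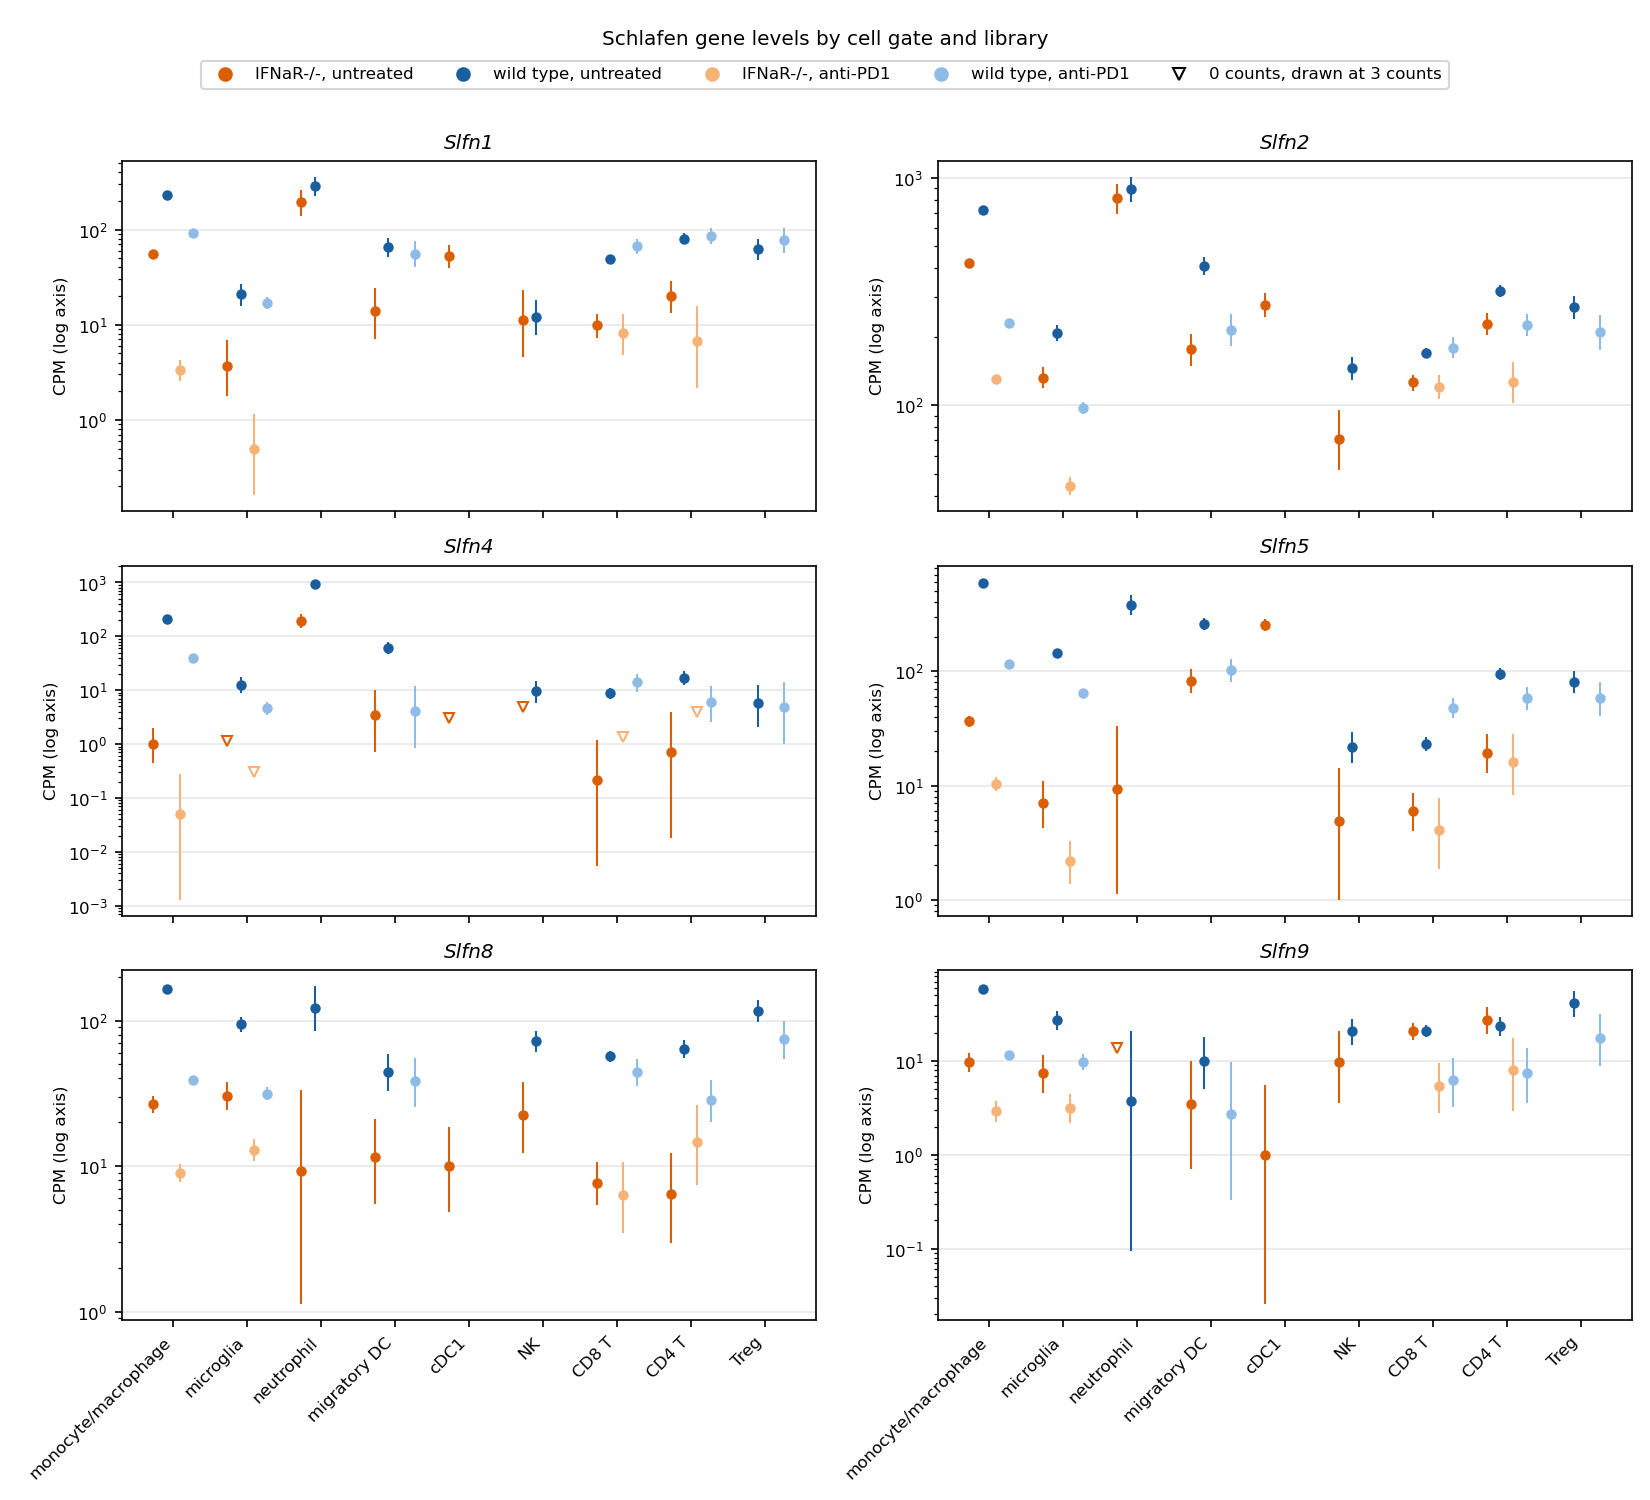
Level of each Schlafen gene in CPM (log axis) by cell gate, for the IFNaR-/- and WT libraries, untreated and after anti-PD1. Bars are 95% Poisson intervals, and gates with under 50 cells or with high Lyz2 are not drawn. Untreated, Slfn4 is at 194 CPM in IFNaR-/- and 921 CPM in WT neutrophils. In monocytes/macrophages it is at 1.02 CPM in IFNaR-/- and 213 CPM in WT cells.

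Slfn5 was highest in dendritic cells among the untreated IFNaR-/- gates. In 56 untreated IFNaR-/- cDC1, the dendritic cells that cross-present antigen, Slfn5 was at 253 CPM (223 to 286), above every other IFNaR-/- gate described. It was at 94.5 CPM in cDC2 and at 82.8 CPM in migratory dendritic cells, with intervals that overlapped, and at 36.4 CPM in monocytes/macrophages. The cDC1 gate was 1.99% of the kept IFNaR-/- cells and held 23.4% of their 1077 Slfn5 UMIs. Lyz2, a lysozyme of monocytes and macrophages, was in this gate at 34.1% of the level of the monocyte/macrophage gate. Fewer than 50 WT cells were in the cDC1 and cDC2 gates, so no difference is given for them. Migratory dendritic cells, marked by Ccr7 and Fscn1, allowed the comparison: Slfn5 had 82.8 CPM in 72 IFNaR-/- cells and 257 CPM in 135 WT cells, 3.11-fold lower (2.39 to 4.08), against 16.3-fold in monocytes/macrophages and 20.2-fold in microglia. All 5 members measured in migratory dendritic cells were at least 2-fold lower, where 4.56% of genes were, and 3 of them (Slfn1, Slfn4 and Slfn8) were measured only through their WT counts. Slfn2 was among the 5, at 176 and 409 CPM. Lyz2 in migratory dendritic cells was at 3.61% of the monocyte/macrophage level in the IFNaR-/- and 11.7% in the WT library. Barcodes that also passed the monocyte/macrophage gate were kept in the dendritic gates. The part of RNA from monocytes/macrophages in these values was not tested. In basophils/mast cells Slfn2 was the only measured member, with 169 CPM in IFNaR-/- and 338 CPM in WT cells, a log2 interval of -1.47 to -0.55. With the pseudocount this falls just short of 2-fold, so 0 of 1 was called, against 3.96% of genes.

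In untreated microglia, the resident macrophages of the brain, 4 of 5 measured members were at least 2-fold lower in the IFNaR-/- library, against 2.50% of 8406 genes, and 3 of the 4 (Slfn1, Slfn5 and Slfn9) were measured only through their WT counts. Slfn5 had 7.08 CPM in 236 IFNaR-/- microglia and 143 CPM in 311 WT microglia, 20.2-fold lower (12.7 to 33.8), and 14 of the 8406 genes had a more negative difference. Slfn8 had 30.5 and 94.1 CPM, 3.08-fold lower (2.40 to 3.99), Slfn9 had 7.45 and 27.1 CPM, and Slfn2 had 132 and 208 CPM. Slfn1 had 10 counts in IFNaR-/- and 60 in WT microglia, 3.72 and 20.8 CPM. Slfn4 had 0 counts in IFNaR-/- and 36 in WT microglia, at least 11.2-fold lower with a floor of 3 counts in the IFNaR-/- library. Lyz2 in the microglial gate was at 37.4% of the monocyte/macrophage level in the IFNaR-/- and 20.0% in the WT library. At the monocyte/macrophage ratios, the Lyz2 of the WT microglia would bring 341% of their Slfn4 and 223% of their Slfn1 counts. It would bring 35.0% to 83.3% of the other members' counts. In IFNaR-/- microglia it would bring 32.5% to 552% of the counts of the members found. Among microglia with at most 2 Lyz2 UMIs (79 IFNaR-/- and 134 WT cells), a set chosen after the values were seen, Slfn1 had 0 counts in both libraries. There 3 members were measured and 2 were at least 2-fold lower, against 2.39% of genes. Slfn5 had 0 counts in IFNaR-/- and 72 counts (98.3 CPM) in WT cells of that set, and was measured only through its WT counts. Slfn2 had 47.1 and 153 CPM, a log2 difference of -1.68 against -0.65 in the whole gate. Slfn8, the member not called, had 65.0 and 124 CPM. The part of RNA from other macrophages in the microglial values was not tested further.

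In T cells the long members Slfn8 and Slfn9 differed from each other. Slfn8 had 7.69 CPM in 398 IFNaR-/- and 56.7 CPM in 723 WT untreated CD8 T cells, 7.37-fold lower (5.25 to 10.7). Slfn9 had 20.7 CPM (97 counts) and 21.1 CPM (183 counts), a log2 difference of -0.03 with an interval of -0.40 to 0.34. In CD4 T cells Slfn8 had 6.48 and 64.2 CPM, 9.91-fold lower (5.11 to 22.0), and Slfn9 had 27.4 and 23.6 CPM, a log2 difference of 0.21 (-0.40 to 0.80). In monocytes/macrophages the interval for Slfn9 ran from -2.94 to -2.23, which overlaps neither T cell interval. NK cells gave Slfn9 only 6 and 41 counts, with a log2 interval of -2.63 to 0.14. Slfn3, outside the 6, had 11 and 24 counts in CD8 T cells, 2.35 and 2.77 CPM, with a log2 interval of -1.41 to 0.85. The transcripts of Slfn8 and Slfn9 share few long stretches: 1.88% of the 90-base stretches of Slfn8 occur exactly in Slfn9. In the order of Slfn9 levels in the IFNaR-/- untreated library, CD4 and CD8 T cells came first and lay above monocytes/macrophages, whereas in the WT library monocytes/macrophages came first, at 58.2 CPM, and Treg cells next, at 41.2 CPM.

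The other members were lower in T cells as in macrophages. Of 6 members, 4 were at least 2-fold lower in IFNaR-/- CD8 T cells, against 1.33% of 9395 genes, and 4 of 6 in CD4 T cells, against 2.65% of 7498. Slfn4 in both T cell types and Slfn8 in CD4 T cells were measured only through their WT counts. Slfn1 had 9.83 and 49.5 CPM in IFNaR-/- and WT CD8 T cells, 5.03-fold lower (3.71 to 6.98). Slfn5 had 5.98 and 23.3 CPM in CD8 T cells and 19.4 and 95.1 CPM in CD4 T cells. Slfn4 had 1 count in IFNaR-/- and 77 in WT CD8 T cells. Slfn2 was 1.35-fold lower in CD8 (1.23 to 1.49) and 1.39-fold lower in CD4 T cells (1.23 to 1.59), with 126 and 170.3 CPM in IFNaR-/- and WT CD8 T cells. If all Lyz2 of the WT CD8 T cells came from monocytes/macrophages at the gene ratios of those cells, it would bring 26.6% of their Slfn4 and 28.2% of their Slfn5 counts, and 3.06% to 5.20% of the other members' counts. In T cells with no Lyz2 UMI, a set chosen after the values were seen, 5 members were measured and Slfn1, Slfn5 and Slfn8 were at least 2-fold lower, 3 of 5 in CD8 T cells against 1.20% of genes and 3 of 5 in CD4 T cells against 2.31%. Slfn4 was too rare there to be measured. In these CD8 T cells Slfn5, with 11 counts in IFNaR-/- and 129 in WT cells, was measured only through its WT counts. So was Slfn8 in these CD4 T cells, with 6 and 140 counts. NK cells had 2 measured members, Slfn2 and Slfn8, and both were at least 2-fold lower, against 2.94% of genes. Slfn2, with 44 counts in IFNaR-/- and 286 in WT NK cells, was 2.04-fold lower (1.48 to 2.88). Slfn8, with 14 and 142 counts, was 3.19-fold lower (1.84 to 5.98), so both intervals include values under 2-fold. Slfn1 had 7 counts in IFNaR-/- and 24 in WT NK cells, 11.3 and 12.2 CPM, with a log2 interval of -1.57 to 1.15.

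**Figure D3:**
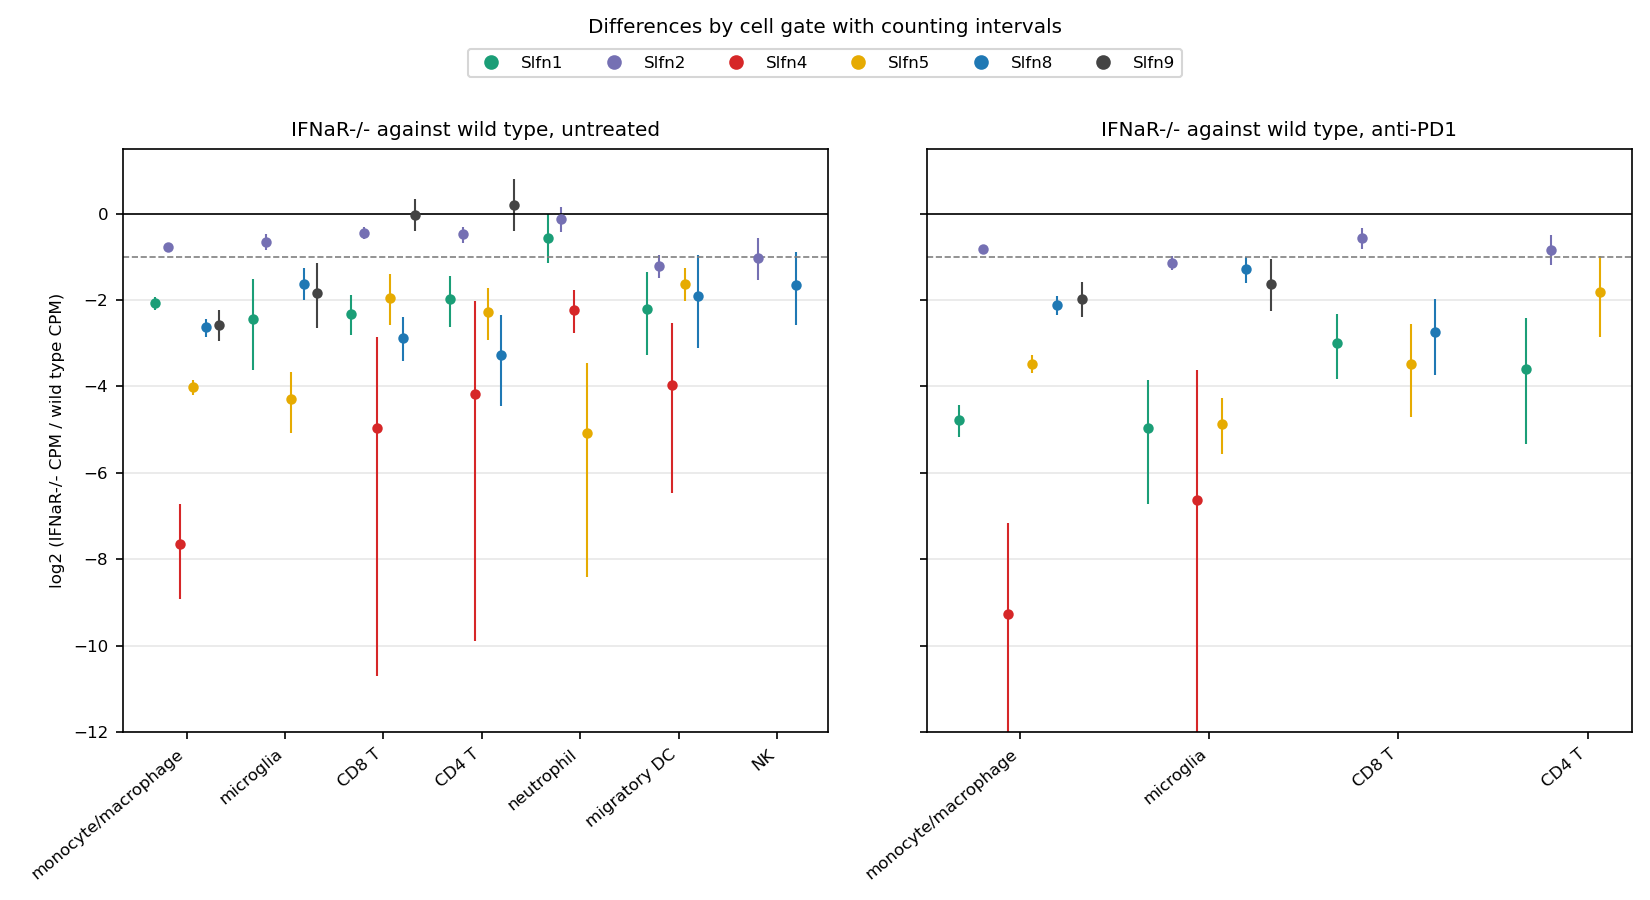
Log2 difference (IFNaR-/- over WT) of each measured Schlafen gene by cell gate, untreated and after anti-PD1. Bars are exact 95% counting intervals, cut at -12, and the dashed line marks 2-fold lower. Untreated, Slfn9 lies at -0.03 in CD8 and 0.21 in CD4 T cells and at -2.57 in monocytes/macrophages.

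Over all T cells of the untreated libraries, Slfn9 was higher in dividing cells. T cells with 2 or more UMIs of the division genes Mki67 and Top2a had 27.2 CPM of Slfn9 against 14.7 CPM in other T cells of the untreated IFNaR-/- library, a log2 difference of 0.88 (0.40 to 1.38). In the untreated WT library they had 35.6 against 17.0 CPM, a log2 difference of 1.07 (0.76 to 1.38). After anti-PD1 the values were 17.2 against 3.98 CPM in IFNaR-/- T cells, from 11 and 12 counts, and 14.5 against 7.32 CPM in WT T cells, where the log2 difference of 0.96 has an interval that includes 0. Between genotypes, dividing T cells had 27.2 CPM in the IFNaR-/- and 35.6 CPM in the WT library, a log2 difference of -0.39 (-0.74 to -0.05). Within CD8 T cells alone, dividing cells had 24.0 against 17.4 CPM in the IFNaR-/- library, with a log2 interval of -0.14 to 1.08, and 29.2 against 13.7 CPM in the WT library (0.64 to 1.56). In CPM, the quiescence gene Slfn2 was lower in dividing T cells in both untreated libraries, with 117 against 176 CPM in IFNaR-/- and 171 against 242 CPM in WT T cells. CPM is a share of all UMIs and not an amount per cell, and amounts per cell were not compared. A Slfn2 UMI was found in more of the dividing cells, 67.0% against 61.4% in IFNaR-/- and 75.9% against 70.8% in WT T cells. Slfn1 had 6.39 against 15.2 CPM and 45.3 against 68.9 CPM, and Slfn5 had 3.20 against 15.7 CPM and 33.5 against 65.2 CPM. Slfn1 was found in 7.39% of dividing and 10.8% of other IFNaR-/- T cells, and in 36.9% and 34.3% of WT T cells. Slfn5 was found in fewer of the dividing cells, 3.91% and 7.53% in IFNaR-/- and 17.8% and 21.4% in WT T cells. Slfn8 was lower in CPM in dividing WT T cells, with 53.0 against 74.3 CPM, though found in 45.5% of them against 38.4% of other WT T cells. In IFNaR-/- T cells the log2 interval of Slfn8, -1.26 to 0.13, includes no difference. Untreated dividing T cells were 230 in the IFNaR-/- and 415 in the WT library, against 425 and 1029 other T cells. Slfn4 had 10.6 CPM in dividing and 14.3 CPM in other WT T cells, with a log2 interval of -0.88 to 0.00. In WT CD8 T cells alone it had 11.8 and 6.18 CPM, with an interval of 0.24 to 1.66.

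**Figure D4:**
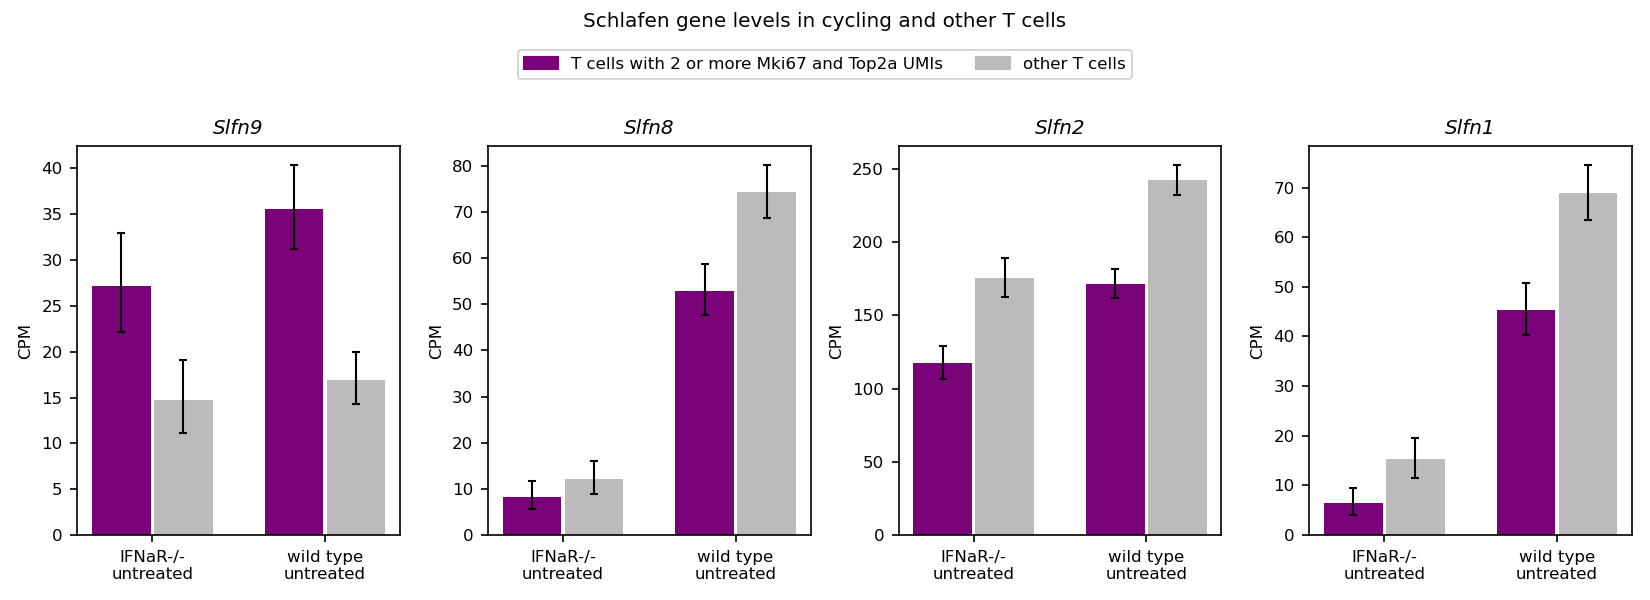
CPM of Slfn9, Slfn8, Slfn2 and Slfn1 in dividing T cells (purple) and other T cells (grey) of the untreated IFNaR-/- and WT libraries, with 95% Poisson intervals. Slfn9 is higher in dividing cells of both libraries (27.2 and 14.7 CPM in IFNaR-/-, 35.6 and 17.0 CPM in WT). The other 3 genes are lower there in CPM, which is a share of all UMIs and not an amount per cell. For Slfn8 in IFNaR-/- cells the interval of the difference includes 0.

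Across 31 points, each a lineage of a library, the levels of the 6 members were compared with those of 11614 genes by Spearman's rho. The points share libraries and depth, so these values only describe. Slfn8 was most like Parp14, Eif2ak2 (an antiviral kinase) and Ifit1 (a blocker of viral RNA translation), with rho of 0.91, 0.89 and 0.87. Slfn5 was most like Stat2, part of the factor that type I interferon activates (0.90), followed by Ogfr and A530032D15Rik. Slfn4 was most like Trim30a, Cmpk2 and Rsad2 (0.85, 0.85 and 0.84). Slfn1 was most like Igtp and Ifi47, guanosine triphosphatases induced by interferon (0.87 and 0.81), and Sra1. Slfn2 was most like Zbtb7b (0.85), Chmp2a and Irf9. Slfn9 was most like Haspin, a mitotic kinase (0.79), Rfc3, a subunit of the clamp loader of DNA replication (0.75), and Pnn. Among the members, rho was highest for Slfn1 with Slfn4 (0.79) and lowest for Slfn2 with Slfn9 (0.11), and Slfn9 was nearest to Slfn8 (0.50).

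Other genes of the interferon response give the setting. Of 30 interferon-stimulated genes, all 30 were measured and lower in untreated IFNaR-/- monocytes/macrophages, 27 at least 2-fold, with a median of -3.61 on the log2 scale, against -2.60 for the Schlafen genes. In CD8 T cells 28 were measured, 28 were lower and 25 at least 2-fold, with a median of -2.23. In neutrophils, where Slfn1 and Slfn2 did not differ beyond counting error, 18 were measured and lower, 14 at least 2-fold, with a median of -2.97. The widest difference in monocytes/macrophages was that of Ifi44, with 0 and 40.8 CPM in IFNaR-/- and WT cells, followed by Ifi27l2a with 9.39 and 2960 CPM and Ifit3 with 1.65 and 225 CPM. A list of 10 T cell quiescence genes, such as Klf2 and Il7r, did not share this pattern in CD8 T cells: 2 were lower and 8 higher, 1 of them at least 2-fold, with a median of 0.37. Genes beside the cluster were also set side by side in untreated monocytes/macrophages. Ap2b1 had 79.7 CPM in IFNaR-/- and 76.6 CPM in WT cells, Rffl had 25.9 and 19.6 CPM, and the log2 intervals of Nle1 and Rad51d included 0. 1700020L24Rik, with 4 and 13 counts, was too rare to be measured there. Within the cluster Slfn3 had 5 counts in IFNaR-/- and 71 in WT monocytes/macrophages, 10.8-fold lower (4.40 to 34.1), and was measured only through its WT counts. After anti-PD1 Slfn3 had 24 and 75 counts there, a log2 difference of -0.36 (-1.09 to 0.32). Slfn14 had 1 or 2 counts in each library, Slfn5os 0 to 38, and the related Slfnl1 none.

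After anti-PD1 the IFNaR-/- library again had lower Schlafen levels, in libraries of unlike kind. In monocytes/macrophages 5 of 6 members were at least 2-fold lower, against 7.92% of 11512 genes, with Slfn4 measured only through its WT counts. Slfn4 had 1 count in 2681 IFNaR-/- cells and 1942 counts (40.3 CPM) in 4651 WT cells, 797.8-fold lower with an interval of 143 to 31529. Slfn1 had 3.34 and 92.0 CPM, 27.6-fold lower (21.6 to 35.7), where the untreated pair gave 4.22-fold. Slfn5 had 10.3 and 115 CPM, Slfn8 178 and 1891 counts (4.36-fold lower), and Slfn9 2.93 and 11.6 CPM. Slfn2 had 131 and 229 CPM, 1.75-fold lower (1.67 to 1.82). Ly6c2 cells were 50 of the IFNaR-/- and 2805 of the WT cells, and within the C1q cells (2305 and 1170) 5 of 6 members were at least 2-fold lower, against 5.93% of genes, with Slfn1 at 2.88 and 54.3 CPM. Within the Ly6c2 cells it was 5 of 6, against 17.1% of genes. The IFNaR-/- Ly6c2 cells held only 0 to 6 counts of each called member. Slfn9 had 2 counts there, 4.83 CPM (0.585 to 17.5), and 12.6 CPM (11.3 to 13.9) in WT Ly6c2 cells, with intervals that overlap. Slfn4 was measured only through its WT counts in the C1q and in the Ly6c2 cells. In microglia 6 of 6 members were at least 2-fold lower, against 5.52% of genes, but Slfn1, Slfn4 and Slfn5 were measured only through their WT counts. Slfn4 had 0 counts in IFNaR-/- and 51 in WT microglia. At the monocyte/macrophage ratio, the Lyz2 of those WT microglia would bring 348% of these Slfn4 counts. Slfn5 was at 2.18 CPM in 1299 IFNaR-/- and 64.6 CPM in 801 WT cells, 29.6-fold lower (19.4 to 47.6). Lyz2 in these microglia was at 29.7% of the monocyte/macrophage level in IFNaR-/- and 40.5% in WT, and among those with at most 2 Lyz2 UMIs (210 and 53 cells) no member reached 50 UMIs, with 3 and 10 counts of Slfn5 and 0 of Slfn1 in both. In CD8 T cells 3 of 4 measured members were at least 2-fold lower, against 6.70% of genes, and in CD4 T cells 2 of 3, against 6.63%, and all of these called members were measured only through their WT counts. In T cells with no Lyz2 UMI Slfn2 alone was measured, with 0 of 1 called in CD8 T cells (background 5.78%) and 1 of 1 in CD4 T cells (7.70%). Slfn9 had 12 counts in each CD8 T library, too few to be measured. Lyz2 in the CD8 T cells of these libraries was at 12.4% of the monocyte/macrophage level in IFNaR-/- and 24.0% in WT, against 0.974% and 1.11% untreated. At the ratios of monocytes/macrophages it would bring 69.1% of the Slfn4 and 57.8% of the Slfn5 counts of WT CD8 T cells after anti-PD1.

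Between treatments, day, sort, software and library kind differ along with the antibody and cannot be told apart from it. In WT monocytes/macrophages all 6 members were at least 2-fold lower after anti-PD1 than untreated, against 15.3% of genes, with Slfn5 at 115 and 593 CPM and Slfn4 at 40.3 and 213 CPM. In IFNaR-/- monocytes/macrophages the 5 measured members were at least 2-fold lower after anti-PD1, against 14.0% of genes, and of these Slfn1 had the largest difference, with 3.34 CPM after anti-PD1 and 55.0 CPM untreated, 16.5-fold lower (12.7 to 21.7). In WT microglia it was 5 of 6, against 19.3%: Slfn1, with 16.9 and 20.8 CPM, was the exception. In IFNaR-/- microglia it was 3 of 3, against 9.96%, with Slfn9 measured only through its untreated counts. In WT CD8 T cells 1 of 6 was at least 2-fold lower, against 11.1% of genes: Slfn9, with 6.24 and 21.1 CPM, 3.38-fold lower (1.89 to 6.66). Slfn5 was at least 2-fold higher there, 1 of 6 against 13.0% of genes, with 47.8 CPM after anti-PD1 and 23.3 CPM untreated. Slfn9 was lower in IFNaR-/- CD8 T cells too, at 5.47 CPM after anti-PD1 and 20.7 CPM untreated, 3.79-fold lower (2.07 to 7.59), there 1 of 4 measured members against 8.66% of genes, and it was measured only through its untreated counts. Called lower after anti-PD1 were also 3 of 6 members in WT CD4 T cells (background 9.25%), 1 of 5 in WT Treg cells (10.2%), 2 of 5 in WT migratory dendritic cells (16.1%) and 0 of 1 in IFNaR-/- CD4 T cells (8.93%). Of these, Slfn4 and Slfn9 in CD4 T cells, Slfn9 in Treg cells and Slfn4 in migratory dendritic cells were measured only through their untreated counts. Dividing and other T cells after anti-PD1 numbered 69 and 715 in the IFNaR-/- and 67 and 548 in the WT library.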

How the data were processed

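Live CD45.2+ cells of 4 libraries were analysed, 1 per group. The deposited files are Cell Ranger matrices of raw UMI counts per gene and cell, per the file headers version 3.1.0 for the untreated and 7.2.0 for the anti-PD1 libraries; the builds mm10 and GRCm38 come from the submitters' processing notes. Per the labels all libraries used a 5′ kit. The receptor segment ratios given above were unlike between libraries, and whether all of them, the untreated pair included, used this kit was not tested. Totals were 32410040 to 94732545 UMIs per library. Barcodes with at least 200 genes and at most 10% mitochondrial UMIs were kept, and lineages were gated on raw marker UMIs. The dendritic, neutrophil and basophil/mast gates took precedence over the monocyte/macrophage gate, so barcodes that passed both were kept in the former. Barcodes in any other 2 or more gates were left out as likely doublets. Counts were summed per lineage and library with at least 50 cells. Differences are log2 ratios of CPM with a pseudocount of 0.5 counts; intervals are exact (conditional binomial for ratios, Poisson for levels). Called means at least 2-fold with at least 50 UMIs in the pair. After the values were seen, gates other than neutrophils, which express Lyz2 themselves, whose Lyz2 exceeded 50% of the monocyte/macrophage level were left out. The calculation was tested on simulated data. The members and gene lists were chosen with earlier results of these data known; named genes are the members, the 3 most similar genes each, up to 3 interferon genes per comparison and neighbours of the cluster; 1 neighbour and a split of T cells by naive markers are not reported here. Promoter windows are from RefSeq (GRCm38.p6; all 6 members matched), gene positions from GENCODE. Tools were Python 3.11.15 with numpy 2.4.6, scipy 1.17.1, pandas 2.3.3, scanpy 1.11.5 and matplotlib 3.10.9, and edgeR 4.0.16 and DESeq2 1.42.0 for scaling alternatives only.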

Additional observations from a re-analysis of the deposited data

Results flagged for a closer look

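Slfn5 and Slfn1 moved in opposite directions in WT CD8 T cells and WT monocytes/macrophages between anti-PD1 and untreated libraries, with counting intervals on both sides of no difference; the difference itself was not tested. Slfn5 had a log2 difference of 1.04 in CD8 T cells, with 47.8 CPM after anti-PD1 and 23.3 CPM untreated, and of -2.37 in monocytes/macrophages. In CD8 T cells with no Lyz2 UMI, Slfn5 was at 18.1 CPM (11 counts) after anti-PD1 and 19.8 CPM untreated. Slfn1 had a log2 difference of 0.44 in CD8 T cells, with 67.1 and 49.5 CPM, and of -1.33 in monocytes/macrophages. In CD8 T cells with no Lyz2 UMI it was at 64.3 and 47.2 CPM.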

How the results depend on the processing

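No paired analysis was possible because each group has 1 library. Counts of members at least 2-fold lower in IFNaR-/- cells were recomputed in monocytes/macrophages, microglia, CD8 and CD4 T cells of both pairs under other cell filters, gate thresholds, doublet removal, TMM and DESeq2 scaling, means of per-cell CPM, thinning to 1000 UMIs and, chosen after seeing the data, gates with few or no Lyz2 UMIs. A member counted as lower only with at least 50 UMIs under the setting itself. The 99 recomputed counts also took in the Ly6c2 and C1q cells. They further held counts of members higher in untreated WT monocytes/macrophages than in CD8 T cells, which had no such minimum. Of the 99, 9 moved by more than 1.5 times, all of them counts of members lower in IFNaR-/- cells under settings that leave fewer counts. Thinning left 1 measured member, Slfn2, in untreated microglia and CD8 T cells (0 called each) and CD4 T cells (1 called), and after anti-PD1 1 in CD8 and CD4 T cells (0 called each) and 2 in microglia (2 called). Without Lyz2, 0 of 1 was called in CD8 and 1 of 1 in CD4 T cells after anti-PD1, and 2 of 3 in untreated microglia with at most 2 Lyz2 UMIs; the anti-PD1 microglia of that set had no measured member and give no value. Of 445 recomputed member differences, 437 stayed on their side of 2-fold and none of the called ones changed sign. A minimum of 1 UMI raised the share of all genes at least 2-fold lower in untreated monocytes/macrophages to 15.4%.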
